A study of Homo sapiens with 6 samples.

Results

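The AP-1 and immediate early genes described here were 10 protein-coding genes, FOS, FOSL1, FOSL2, JUN, JUNB, JUND, ATF3, EGR1, IER3 and MYC, taken by gene name from a deposited count table of 62754 genes. All 10 names matched a row, and each had at least 10 counts in at least 3 libraries, so none was set aside as low. The cells were HK-2, an immortalised line from human proximal tubule, and every library came from cells given Cisplatin, a platinum drug that crosslinks DNA and injures the tubule. CP+siNC cells (n = 3) received NC siRNA, a negative control, and CP+siNAT10 cells (n = 3) received an siRNA against NAT10, an acetyltransferase that modifies cytidine in RNA. The study's methods describe a dose and time of Cisplatin, but the labels give neither, so they are not stated here, and no library without Cisplatin was analysed here, so the comparison asks what lowering NAT10 does within drug-treated cells. Library totals ran from 19321665 to 21602988 counts in CP+siNC and from 20793709 to 25192736 counts in CP+siNAT10.

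AP-1 is a family of dimeric transcription factors in which a JUN protein pairs with a FOS, JUN or ATF protein through a leucine zipper and binds short palindromic DNA sites. Immediate early genes are transcribed within minutes of a growth signal or stress, without new protein synthesis, mostly through MAP kinases and serum response factor, and their mRNAs are usually short lived. In tubule cells they respond to injury, and ATF3, JUN and MYC are well known as genes that react to DNA damage and other stress.

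NAT10 itself was measured first. It stood at 75.8, 71.4 and 73.2 counts per 1000000 counts of a library (CPM) in CP+siNC replicates 1 to 3 and at 41.3, 40.5 and 42.4 CPM in CP+siNAT10 replicates 1 to 3. The siNAT10 libraries all lay below the control libraries, at 56.4% of the control mean, with a log2 fold change of -0.82 (SE 0.0426, edgeR quasi-likelihood test, Benjamini-Hochberg adjusted p = 2.79e-15). Every log2 fold change here is CP+siNAT10 minus CP+siNC.

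The cell type was checked against markers. Of 8 epithelial markers 7 passed the filter on low counts, led by KRT8 at 1430 CPM in CP+siNC, and their summed level was 2070 to 2130 CPM in CP+siNC and 2070 to 2080 CPM in CP+siNAT10. KRT8 made up most of that sum, and mean levels of other markers differed between CP+siNC and CP+siNAT10, with KRT18 at 341 and 272 CPM, PAX8 at 31 and 47.8 CPM and EPCAM at 15.3 and 19.5 CPM. Only 4 of 12 proximal tubule markers passed, among them GGT1 (32.7 and 27.7 CPM), SLC5A2 (9.16 and 11.7 CPM) and AQP1 (1.02 and 0.701 CPM). SLC22A6 had 0 counts in every library, LRP2 and SLC22A8 at most 1, and the epithelial cadherin CDH1 at most 2. None of 5 endothelial markers passed. The 5 leukocyte markers summed to 204, 196 and 214 CPM in CP+siNC and 292, 269 and 270 CPM in CP+siNAT10, nearly all of it CD68, a lysosomal protein that is not limited to leukocytes, while CD3E had at most 10 counts. The 5 mesenchymal markers, led by COL1A1, summed to 10.9, 11.9 and 10.6 CPM against 13.9, 16.7 and 13.6 CPM. The part of these marker differences in the results was not tested.

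Within the set, genes moved in both directions and by modest amounts. FOSL1, JUND and MYC were higher in CP+siNAT10, JUNB, EGR1 and FOSL2 were lower, and FOS, JUN, ATF3 and IER3 did not pass the test. The calls, at an adjusted p under 0.05, thus numbered 6 of 10 genes, with 3 in each direction. When the change was tested against 1.2-fold in place of 0 (glmTreat in edgeR), 1 of the 10 was called, JUNB (adjusted p = 0.000187), and EGR1 (0.0938), JUND (0.182), FOSL1 (0.566), FOSL2 (1) and MYC (1) were not. Of all 19874 tested genes, the test against 1.2-fold called 2910. In the test against 0, 44.1% of all tested genes were called, 21.8% higher and 22.3% lower. Calls were thus common in this comparison, and the share among 10 genes says little about the set. None of the 10 had an adjusted p under 0.05 together with a log2 fold change over 1 in size, a pair of limits that 2.33% of tested genes passed, and the count was also 0 with an unadjusted p under 0.05 and with DESeq2. The median log2 fold change was 0.02 over the 10 genes and 0.01 over all tested genes. In 8 of 10 genes the libraries of one group lay wholly above those of the other, beside 51.4% of all tested genes. The labels do not say that replicates were separate cultures, so the p-values measure the spread between these samples, which may be technical. In bulk RNA, fewer cells that express a gene and less RNA per cell cannot be told apart.

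**Figure D1:**
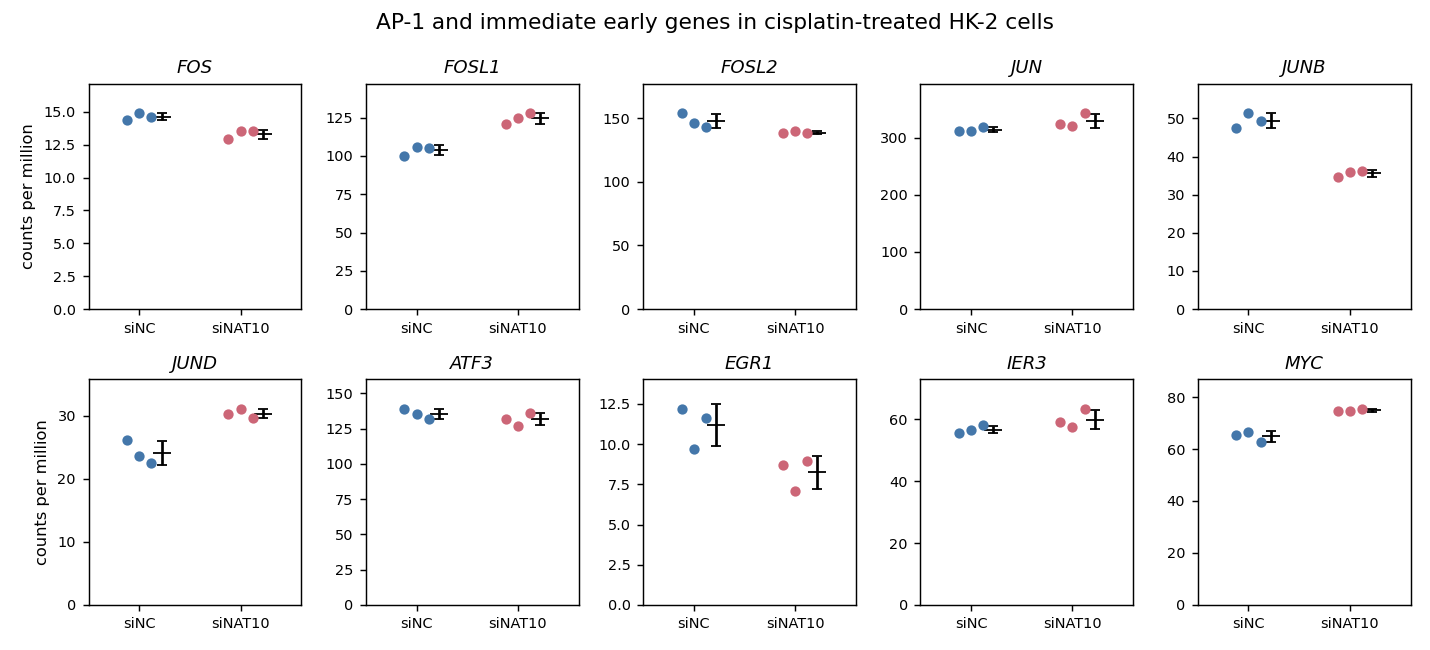
CPM of the 10 genes in each library, with points for the 3 replicates of CP+siNC (blue) and CP+siNAT10 (red) and black marks for the mean and SD of each group; each panel has its own axis starting at 0. The groups lie apart in 8 panels and overlap for ATF3 and IER3.

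Among the JUN family genes, JUNB had the smallest p, which was also the smallest of the 10 genes. JUNB is a JUN family protein that often restrains growth and competes with JUN for partners. It stood at 47.4, 51.4 and 49.3 CPM in CP+siNC and at 34.6, 35.9 and 36.3 CPM in CP+siNAT10. All 3 control libraries were above all 3 siNAT10 libraries, and the means were 49.4 ± 2.03 and 35.6 ± 0.882 CPM (SD, n = 3 each), a level at 72.1% of control. The log2 fold change was -0.47 (SE 0.047, edgeR quasi-likelihood test, Benjamini-Hochberg adjusted p = 2.25e-09). The gene lies at chr19:12791486-12793315 (GRCh38, plus strand) in the deposited table, inside the span of HOOK2, a gene on the minus strand that was itself lower, at 77.5 ± 3.15 CPM in CP+siNC and 64.6 ± 1.82 CPM in CP+siNAT10 (SD, n = 3 each). The library kit kept strand, but the sources used here do not state whether counting used it. Whether reads of overlapping genes on opposite strands were told apart is therefore not known.

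JUND, the JUN protein with the steadiest expression in most resting cells, went the other way. Its levels were 26.2, 23.6 and 22.5 CPM in CP+siNC and 30.2, 31.1 and 29.7 CPM in CP+siNAT10. Every siNAT10 library was above every control library, the 3 siNAT10 values were close together, and the mean rose from 24.1 ± 1.89 to 30.3 ± 0.701 CPM (SD, n = 3 each). The log2 fold change was 0.33 (SE 0.0568, edgeR quasi-likelihood test, Benjamini-Hochberg adjusted p = 1.89e-05). JUN, the founding member and the main substrate of the JNK kinases, stood at 312, 311 and 319 CPM in CP+siNC and at 324, 321 and 343 CPM in CP+siNAT10. The groups did not overlap, but replicate 3 of CP+siNAT10 stood above the rest and the difference did not pass the test, with a log2 fold change of 0.07 (95% interval 0.00 to 0.14, edgeR quasi-likelihood test, Benjamini-Hochberg adjusted p = 0.097). With scaling by library size alone JUN was called, at 0.11 and an adjusted p of 0.0081 from the same edgeR test, and without CP+siNAT10 replicate 3 it was 0.04 (adjusted p = 0.432 in edgeR). Over all settings its adjusted p ran from 0.0081 to 1.

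Promoter sequences are shown for JUNB and EGR1, which both fell, and for JUND, which rose. The set of RefSeq promoter sequences used here (GRCh38.p14) matched 7 of the 10 genes and held no entry for FOSL1, IER3 and MYC. The 250 bases before each start are given 5′ to 3′ on the strand of the gene, with capitals for matches to 4 motifs searched on both strands: the AP-1 site TGACTCA, the core TGACGTC of the cAMP response element, the TATA box as TATAAA, and the CArG box, which serum response factor binds. The JUNB bases lie at chr19:12791236-12791485 (plus strand), those of EGR1 at chr5:138465229-138465478 (plus strand) and those of JUND at chr19:18281623-18281872 (minus strand), upstream of a RefSeq start that lies outside the deposited JUND span, chr19:18279694-18280929.
JUNB promoter: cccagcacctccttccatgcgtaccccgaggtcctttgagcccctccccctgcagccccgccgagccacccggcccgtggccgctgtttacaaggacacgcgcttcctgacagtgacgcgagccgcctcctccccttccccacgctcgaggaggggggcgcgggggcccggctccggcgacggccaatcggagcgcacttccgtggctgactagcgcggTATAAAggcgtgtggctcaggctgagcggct
EGR1 promoter: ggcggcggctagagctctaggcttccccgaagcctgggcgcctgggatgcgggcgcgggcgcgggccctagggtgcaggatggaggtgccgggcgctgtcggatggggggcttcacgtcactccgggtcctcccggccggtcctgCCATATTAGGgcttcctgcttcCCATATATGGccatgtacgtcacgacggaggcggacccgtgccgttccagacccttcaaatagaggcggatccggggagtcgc
JUND promoter: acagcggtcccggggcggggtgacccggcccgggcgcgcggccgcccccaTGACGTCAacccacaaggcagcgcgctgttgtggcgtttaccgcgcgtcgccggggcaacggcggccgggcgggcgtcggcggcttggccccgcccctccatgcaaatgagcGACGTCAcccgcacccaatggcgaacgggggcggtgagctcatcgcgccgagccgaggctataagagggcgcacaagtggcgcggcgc
JUNB held a TATA box 31 to 26 bases before the start. TATAAA at any position and on either strand occurred in 10.7% of the 35116 promoters of this length. EGR1 held a pair of CArG boxes, 105 to 96 and 83 to 74 bases before the start, where 1.16% of promoters hold at least 1. In JUND the TGACGTC core matched on both strands of a single palindrome 200 to 193 bases before the start and again on the opposite strand at 88 to 82, and 3.12% of promoters hold that core. TGACTCA occurred in none of the 3 sequences and in 4.2% of all promoters. FOS, whose sequence is not shown, had a TATA box 33 to 28 bases before its start. Sequences of ATF3, FOSL2 and JUN are not shown either. ATF3 had a TATAAA match 230 to 225 bases before the later of its listed starts, and FOSL2 and JUN held no match to the motifs searched. These are matches of letters, not measured binding.

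The FOS family genes differed among themselves as well. FOSL1, which encodes FRA-1 and is a late and lasting AP-1 subunit of migrating and RAS-driven cells, stood at 100.2, 106 and 105 CPM in CP+siNC and at 121, 125 and 128 CPM in CP+siNAT10. The groups lay well apart, and the mean rose by 20.7%, from 104 ± 2.97 to 125 ± 3.44 CPM (SD, n = 3 each). Its log2 fold change was 0.27 (SE 0.0365, edgeR quasi-likelihood test, Benjamini-Hochberg adjusted p = 4.82e-07). FOSL1 lies at chr11:65892049-65900573 (GRCh38, minus strand). FOSL2, which encodes FRA-2 and lies at chr2:28392448-28412192 (GRCh38, plus strand), stood at 154, 146 and 143 CPM in CP+siNC and at 138, 140 and 138 CPM in CP+siNAT10. Replicate 1 of CP+siNC was the highest, and the lowest control library was only slightly above the highest siNAT10 library. The log2 fold change of FOSL2 was -0.09 (SE 0.0355, edgeR quasi-likelihood test, Benjamini-Hochberg adjusted p = 0.0332), the weakest call of the 6. That call was lost with DESeq2 (adjusted p = 0.0688), with library size alone (-0.06, adjusted p = 0.199 in edgeR), with a looser filter on low counts (adjusted p = 0.114 in edgeR) and in 4 of the 6 fits that left out a library, and over all settings its adjusted p ran from 0.0155 to 1. Without CP+siNC replicate 1 the FOSL2 value was -0.06 (adjusted p = 0.193 in edgeR), and without CP+siNAT10 replicate 1, 2 or 3 it was -0.09, -0.1 and -0.09 (adjusted p = 0.0769, 0.0628 and 0.0856 in edgeR). FOSL2-AS1, which overlaps FOSL2 on the opposite strand, was not called and had 17 to 39 counts per library against 2745 to 3492 for FOSL2.

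FOS, the classic immediate early partner of JUN, was low, with 271 to 341 counts per library. It stood at 14.4, 14.9 and 14.6 CPM in CP+siNC and at 12.9, 13.5 and 13.5 CPM in CP+siNAT10. Each siNAT10 library was below each control library, yet the difference did not pass the test, with a log2 fold change of -0.14 (95% interval -0.28 to 0.01, edgeR quasi-likelihood test, Benjamini-Hochberg adjusted p = 0.115). FOSB, the remaining FOS family gene and not one of the 10, was higher at 64.1 ± 1.53 CPM in CP+siNC and 76 ± 3.01 CPM in CP+siNAT10 (SD, n = 3 each). It overlaps ERCC1, a repair gene on the opposite strand that was lower, at 258 ± 6.95 and 214 ± 3.03 CPM (SD, n = 3 each), so the FOSB value is uncertain for the reason given for JUNB.

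EGR1, a zinc finger protein induced through serum response factor, was the least abundant of the 10 per length and varied most between replicates. It lies at chr5:138465479-138469303 (GRCh38, plus strand). It stood at 12.2, 9.72 and 11.6 CPM in CP+siNC and at 8.69, 7.09 and 8.95 CPM in CP+siNAT10. Replicate 2 was the lowest library in each group, and the lowest control library remained above the highest siNAT10 library. The means were 11.2 ± 1.28 and 8.25 ± 1.01 CPM (SD, n = 3 each), from 155 to 229 counts per library, with a log2 fold change of -0.43 (SE 0.099, edgeR quasi-likelihood test, Benjamini-Hochberg adjusted p = 0.000797). The fitted variation between replicates of EGR1 was 5.09%, beside 2.53% to 2.9% for the other 9 genes.

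MYC, a growth regulator that dimerises with MAX, stood at 65.6, 66.7 and 62.6 CPM in CP+siNC and at 74.6, 74.6 and 75.5 CPM in CP+siNAT10. The siNAT10 libraries were nearly identical and all above the controls, with a log2 fold change of 0.2 (SE 0.0395, edgeR quasi-likelihood test, Benjamini-Hochberg adjusted p = 9.2e-05). CASC11, a non-coding gene that overlaps MYC on the opposite strand, had 93 to 150 counts per library against 1206 to 1914 for MYC, and it was also higher, with a log2 fold change of 0.31 (edgeR quasi-likelihood test, Benjamini-Hochberg adjusted p = 0.0444). ATF3, a stress-induced member of the ATF family that pairs with JUN proteins, stood at 139, 135 and 132 CPM in CP+siNC and at 132, 127 and 136 CPM in CP+siNAT10. Its groups overlapped, and the log2 fold change was -0.04 (95% interval -0.11 to 0.04, edgeR quasi-likelihood test, Benjamini-Hochberg adjusted p = 0.417). It was -0.02 without CP+siNC replicate 1, -0.01 without CP+siNAT10 replicate 2 and -0.06 without replicate 3 of either group, and with no setting was ATF3 called, at adjusted p from 0.225 to 1 in edgeR or DESeq2. IER3, an early response gene that protects against apoptosis in many cells, stood at 55.7, 56.4 and 58 CPM in CP+siNC and at 59, 57.4 and 63.4 CPM in CP+siNAT10. The IER3 groups overlapped too, with a log2 fold change of 0.08 (95% interval -0.01 to 0.17, edgeR quasi-likelihood test, Benjamini-Hochberg adjusted p = 0.135). With library size alone IER3 was called at 0.12 (adjusted p = 0.0295 in edgeR), and without CP+siNAT10 replicate 3 it was 0.04 (adjusted p = 0.565 in edgeR). Over all settings its adjusted p ran from 0.0295 to 1. IER3 overlaps a pair of genes on the opposite strand, HCG20, at 16.1 and 16.2 CPM, and IER3-AS1, at 21.9 and 21.8 CPM, in CP+siNC and CP+siNAT10.

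**Figure D2:**
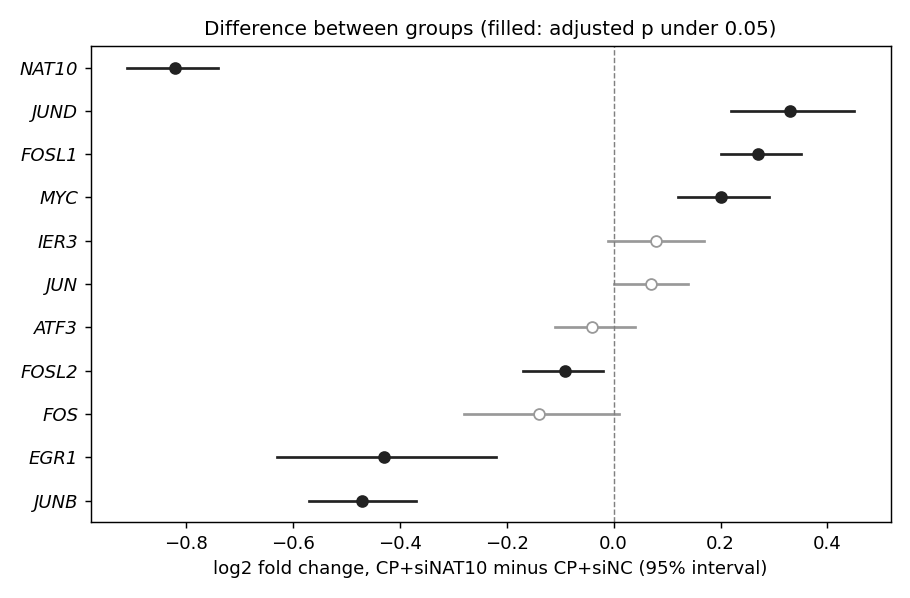
Log2 fold change of the 10 genes and NAT10, CP+siNAT10 minus CP+siNC, with 95% intervals from the edgeR fit; filled points had an adjusted p under 0.05. Values run from -0.47 for JUNB to 0.33 for JUND, beside -0.82 for NAT10.

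Levels of different genes were compared per kilobase of the deposited gene length. In CP+siNC the order of the 10 levels was JUN (86.7 ± 1.28 CPM per kb), FOSL1 (54.9 ± 1.57), IER3 (42 ± 0.871), ATF3 (33.8 ± 0.855), JUNB (27 ± 1.11), FOSL2 (20.6 ± 0.863), JUND (12.5 ± 0.981), MYC (10.6 ± 0.346), FOS (4.59 ± 0.0805) and EGR1 (3.55 ± 0.407; all SD, n = 3). No neighbours in that order overlapped between libraries. The order of the means was the same in CP+siNAT10, but JUNB and FOSL2 then overlapped, at 19.5 ± 0.482 and 19.3 ± 0.147 CPM per kb (SD, n = 3). The deposited length exceeded the distance from deposited start to end for 4 genes, FOS, JUND, IER3 and MYC, so lengths from GENCODE 29 were tried after seeing the data. MYC then had 3001 bases in place of 6109, its level in CP+siNC became 21.6 CPM per kb, and it moved ahead of FOSL2 and JUND. In TPM, where levels per length are scaled to the same sum over all tested genes in each library, every gene was multiplied by a common factor of 2.49 in CP+siNC and 2.67 in CP+siNAT10, so all genes are shifted up by 7.25% in CP+siNAT10. On that scale FOSL2 had means of 51.3 and 51.6, ATF3 84.3 and 88, JUN 216 and 243, IER3 105 and 119, and FOS 11.4 and 11.1, values that reflect the shared shift as well as each gene.

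The make-up of each family differed between the groups. Among FOS, FOSL1 and FOSL2, FOSL1 held 67, 69.1 and 69.4% of the summed level per kilobase in CP+siNC and 73.4, 73.6 and 74.3% in CP+siNAT10. FOSL2 held 25.8% ± 1.3 and 21.5% ± 0.464, and FOS 5.73% ± 0.0315 and 4.65% ± 0.0612 (SD, n = 3 each). Among JUN, JUNB and JUND, JUNB held 20.6, 22.3 and 21.2% in CP+siNC and 15.3, 15.8 and 15.3% in CP+siNAT10, while JUN held 68.7% ± 0.773 and 72.1% ± 0.804 and JUND 9.91% ± 0.831 and 12.5% ± 0.567 (SD, n = 3 each). All 6 shares lay apart between groups, and since shares in a family sum to a fixed total they are not separate results. No test was run on the shares. Shares taken from counts, without length, put FOSL2 first in its family, at 55.5% and 50% in CP+siNC and CP+siNAT10, with FOSL1 at 39% and 45.2%, and gave JUNB 12.7% and 9.01%. FOSB, which is not one of the 10 genes and overlaps ERCC1, was left out of the FOS family. JUNB was kept in the JUN family although it overlaps HOOK2, so the JUN family shares carry the same uncertainty. With FOSB included, a choice made after seeing the data, FOSL1 held 59.9% ± 1.09 and 64% ± 0.638 and FOSB 12.6% ± 0.297 and 13.2% ± 0.565 (SD, n = 3 each).

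**Figure D3:**
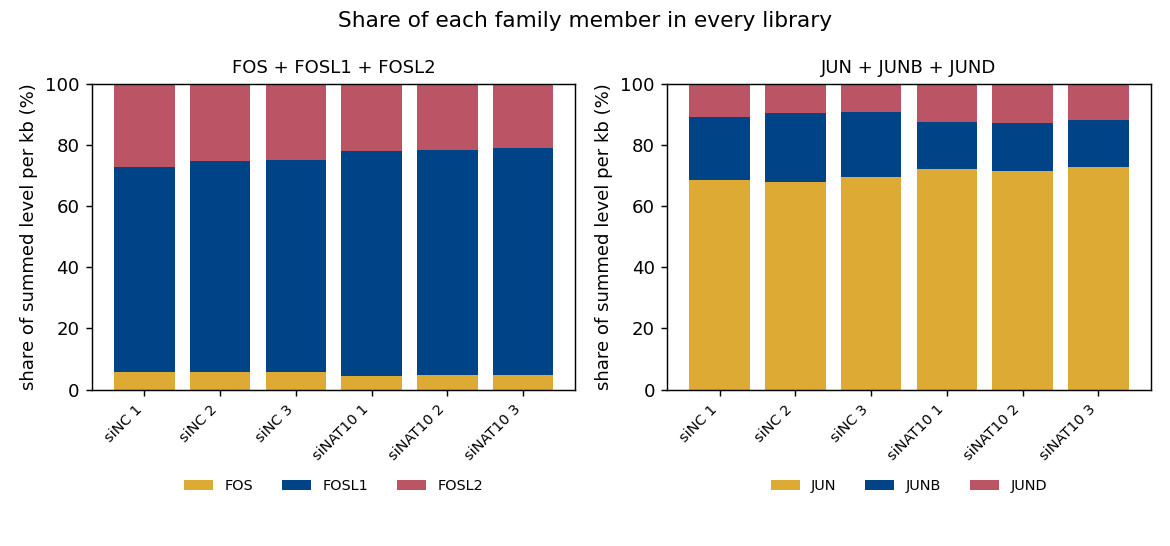
Share of each gene in the summed level per kilobase of its family, in percent, for each of the 6 libraries, as stacked bars. FOSL1 goes from 68.5% to 73.8% on average and JUNB from 21.4% to 15.4%, while in shares of counts FOSL2 is the larger, at 55.5% and 50%.

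All 10 genes carry the pentamer ATTTA of AU-rich elements in the longest 3′ UTR that GENCODE 29 gives them, as do 73.2% of 12675 tested genes with such a UTR. The density was 8.4 per kb in MYC, 6.64 in IER3, 6.2 in FOS and 4 in JUNB, and 0.81 in EGR1, beside a median of 1.49 per kb over those genes. Of these 4 denser genes MYC was higher and JUNB lower in CP+siNAT10, and IER3 and FOS were not called. EGR1 was lower. The density was 2.45 per kb in ATF3 and 2.33 in JUN, which were not called, and 1.85 in FOSL2, which was lower. It was 1.47 in JUND and 1.19 in FOSL1, which were both higher.

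When only genes averaging 5 CPM or more were searched, those closest to FOS by the likeness of log2 CPM over the 6 libraries were GTF2I (Pearson r = 0.997), ATP6V1G2-DDX39B, FANCI, TMEM123 and FAT1, with r of at least 0.995. Those closest to JUN were IER3 (r = 0.986), TMCO3, LGMN, PYROXD2 and ABHD11, with r of at least 0.974. These describe 6 libraries only, and a group difference can enter such an r. JUN and IER3, which were not called, were both highest in CP+siNAT10 replicate 3, at 343 and 63.4 CPM.

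Around the 10 genes, lists of relatives, regulators and targets were counted in the same fit, and changes are given on the log2 scale. Some genes, such as ATF4, DDIT3, TGFB1 and DUSP5, are in more than 1 list. Among other AP-1 and leucine zipper genes 26 of 29 were tested, 7 were higher and 12 lower, so 73.1% were called beside 44.1% of all tested genes, with a median log2 fold change of -0.14 beside 0.01. Over all tested genes 21.8% were higher and 22.3% lower, the shares to set beside every list. Every list had a larger share called than all tested genes, from 50% of textbook MYC targets to 80% of textbook AP-1 targets. A share over 44.1% is thus not particular to any of the lists. All tested genes were not matched to the lists for expression level, and the lists were chosen with earlier results of these data known. NFE2L3, a relative of NRF2, fell by 0.95 (adjusted p = 8.52e-12, edgeR quasi-likelihood test, Benjamini-Hochberg adjustment), the small MAF protein gene MAFF fell by 0.46 and ATF4, the effector of the integrated stress response, fell by 0.36. CREB5 rose by 0.67, CEBPD by 0.59 and DDIT3, which encodes CHOP, by 0.31.

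Of 35 other immediate early genes tested 17 were lower, 6 higher and 12 not called (65.7% called, beside 44.1% of all tested genes), with a median of -0.13 beside 0.01 over all tested genes. CCN2 and CCN1, secreted matrix proteins, went from 92.4 ± 2.63 to 58.7 ± 1.94 CPM and from 187 ± 4.32 to 141 ± 5.43 CPM, and the damage-induced GADD45A from 228 ± 7.91 to 158 ± 9.11 CPM (SD, n = 3 each). BTG2, RHOB and KLF6 rose by 0.36, 0.41 and 0.28 on the log2 scale. EGR2 and EGR3, relatives of EGR1, did not pass the test, with log2 fold changes of 0.04 and -0.29.

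Upstream, 31 MAP kinase and serum response factor pathway genes were tested, of which 11 were higher and 8 lower, with a median of 0.02. NRAS went from 59.8 ± 1.81 to 30.4 ± 0.586 CPM (SD, n = 3 each), a log2 fold change of -0.97 (adjusted p = 3.77e-16, edgeR quasi-likelihood test, Benjamini-Hochberg adjustment), and RPS6KA5 and ELK3 fell by 0.76 and 0.29. MKNK2, RPS6KA4 and SRF itself rose by 0.56, 0.6 and 0.3, whereas the genes of the kinases ERK1 (MAPK3), MEK1 (MAP2K1) and p38 alpha (MAPK14) did not pass the test. Of 10 MAP kinase phosphatases tested 3 were higher (DUSP8, DUSP5 and DUSP10) and 3 lower, with a median of 0.15, and DUSP6, which removes phosphate from ERK, fell by 0.85 while DUSP14 and DUSP1 fell by 0.36 and 0.14. With library size alone 5 phosphatases were higher and 2 lower, and without CP+siNC replicate 2 there were 5 higher. The calls of DUSP1 and DUSP10 were lost with DESeq2, without CP+siNC replicate 3 (-0.08 and 0.19) and without CP+siNAT10 replicate 3 (-0.09 and 0.18), and that of DUSP1 also with library size alone (-0.1).

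Textbook targets of AP-1 included larger changes. Of 25 tested 7 were higher, 13 lower and 5 passed both limits, with a median of -0.13. Thus 80% were called, beside 44.1% of all tested genes, of which 2.33% passed both limits. That background was not matched for expression level, so the shares do not set this list apart. CCND1, the cyclin that starts the cell cycle, went from 280 ± 6.16 to 105 ± 2.51 CPM (SD, n = 3 each), a log2 fold change of -1.41 (adjusted p = 1.47e-22, edgeR quasi-likelihood test, Benjamini-Hochberg adjustment). The collagenase MMP1 rose by 2.26 from a low 1.33 CPM, MMP9 fell by 1.66 from 2 CPM and ITGB6 was 1.43 higher, from 0.444 CPM. ITGB6, among the 5 past both limits, had 12, 6 and 8 counts in CP+siNC and 29, 22 and 30 in CP+siNAT10. It passed the filter on low counts only through the group where it was high, so its place among the 5 carries no weight. VEGFA and AREG rose by 0.74 and 0.71, and PLAU fell by 0.8. These genes have many other regulators, and the part of AP-1 was not tested.

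For EGR1, 13 partners and targets were tested, 3 higher and 6 lower (5 and 6 with library size alone), with a median of 0.04. THBS1 fell by 1.11, ICAM1 by 0.66 and TGFB1 by 0.64, while FN1 rose by 0.7 and DUSP5 by 0.28. For MYC, 11 genes of the MAX network were tested, 3 higher (MLXIP, MGA and ZBTB17) and 4 lower, with a median of 0.05, and MAX itself was not called at 107 ± 2.87 and 114 ± 13.1 CPM (SD, n = 3 each). MXD4, MLX and MXI1 fell by 0.34, 0.28 and 0.34. Of 26 textbook MYC targets 7 were higher and 6 lower, with a median of 0.01. NOLC1 rose by 0.9, BOP1 by 0.41 and ODC1 by 0.22, and TFAM, LDHA and HSPE1 fell by 0.91, 0.43 and 0.29, as did CCND2 by 1.09. The 11 stress genes described with ATF3 had 3 higher (DDIT3, DDIT4 and HERPUD1) and 4 lower, with a median of -0.04, and VLDLR and PPP1R15A fell by 0.47 and 0.28. HERPUD1, at 0.17, lost its call with DESeq2, with upper quartile scaling (adjusted p = 0.0508 in edgeR), with the looser filter (adjusted p = 0.0676 in edgeR), with the replicate block (adjusted p = 0.0574 in edgeR), and without CP+siNC replicate 1 or 3 (0.16 and 0.14) or CP+siNAT10 replicate 1 or 3 (0.15 in both fits).

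Genes for the decay of AU-rich mRNAs and for protein turnover, a list that holds proteins that stabilise as well as break down FOS, JUN and MYC, were counted too. Of 23 AU-rich decay factors 6 were higher and 7 lower (7 and 4 with library size alone), with a median of -0.02, and CNOT6, CNOT7 and DCP2 fell by 0.69, 0.53 and 0.44 while TIA1, PARN and CNOT2 rose by 0.29, 0.48 and 0.23. Among 20 genes for turnover of FOS, JUN and MYC proteins 10 were higher and 3 lower, with 65% called beside 44.1% of all tested genes and a median of 0.13. FBXW7, the ligase subunit that marks JUN and MYC for the proteasome, rose by 0.43 and DDB1 by 0.2. USP36, which removes ubiquitin from MYC, rose by 0.25, and AURKA and CIP2A, which protect MYC from breakdown, fell by 0.22 and 0.16. Protein amounts of the 10 genes were not measured here.

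**Figure D4:**
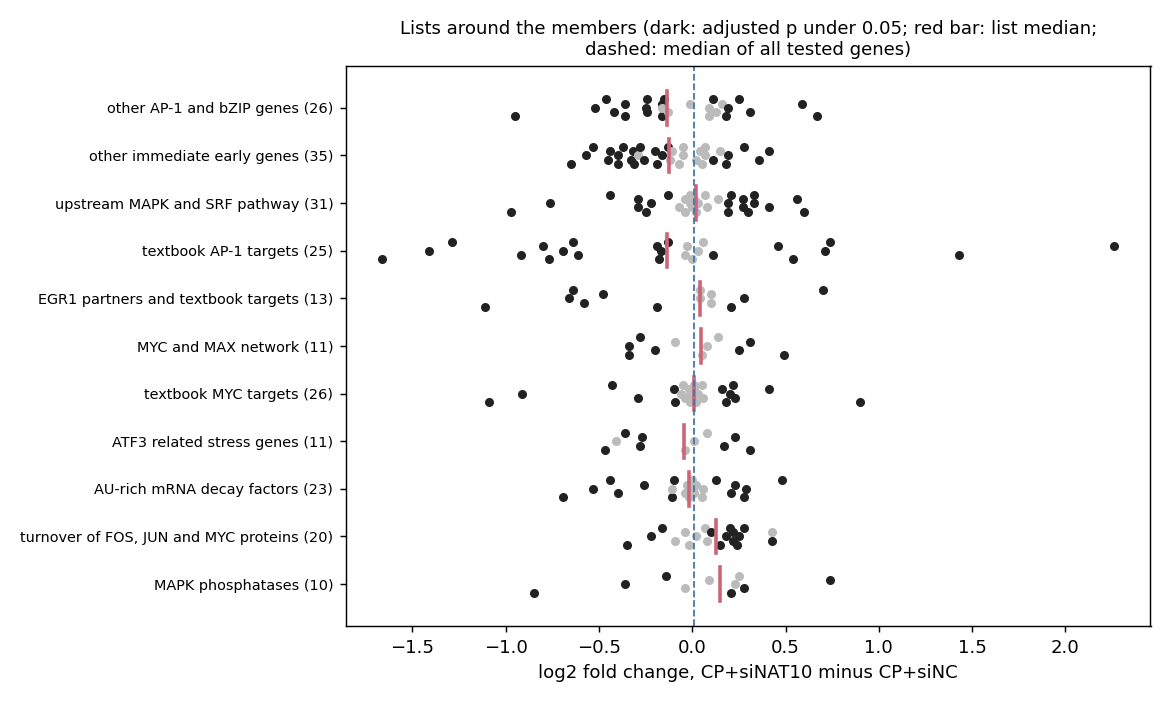
Log2 fold change, CP+siNAT10 minus CP+siNC, of every tested gene in 11 lists, with the number tested in brackets; dark points had an adjusted p under 0.05, red bars are list medians and the dashed line is the median of all tested genes. List medians run from -0.14 to 0.15.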

How the data were processed

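Stranded mRNA libraries of 6 HK-2 samples were analysed from the raw read counts per gene that the authors deposited, together with the gene length in bases. Per the submitters' processing notes and methods, the authors trimmed reads with Trimmomatic 0.36, aligned them with STAR 2.5.3a to GRCh38 and counted them with featureCounts (Subread 1.5.1); annotation release, strand setting and whether reads with the same molecular identifier, which the kit adds, were merged are not given in the sources used here. Counts were filtered with filterByExpr (at least 10 counts, total of 15), scaled by TMM to CPM and tested with edgeR 4.0.16 (glmQLFit, glmQLFTest) in R 4.3.3, with Benjamini-Hochberg adjustment over 19874 genes. Intervals cover 95%. Alternatives were other scalings (RLE, upper quartile, library size), looser and stricter filters, DESeq2 1.42.0, the exact test, glmTreat against a 1.2-fold change, a replicate block and leaving out each library. The code was tested on simulated data, where genes under 5 CPM were recovered less often. The members and lists were chosen with earlier results of these data known. Named genes were the 10 members, NAT10, and from each list up to 3 genes per direction with the smallest p among adjusted p under 0.05, plus those past both limits; EGR2, EGR3, MAPK3, MAP2K1, MAPK14, MAX, FOSB, ERCC1, HOOK2 and the antisense genes were added after their values were seen. Some genes that the rule names are not reported here.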

Additional observations from a re-analysis of the deposited data

How the results depend on the processing

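Of the log2 fold changes of the 10 members, NAT10 and the 66 list genes followed, none that was called changed sign in any refit. TPM multiplies all genes by a common factor that is 7.25% higher in CP+siNAT10, a shift of 0.1 on the log2 scale. JUNB and NAT10 kept their calls in every setting, and FOSL1, JUND, EGR1 and MYC in all but the test against a 1.2-fold change. In that test (glmTreat) 1 member was called, 0 higher and 1 lower, of 2910 genes; FOSL1 (0.27), FOSL2 (-0.09), JUND (0.33), EGR1 (-0.43) and MYC (0.2) were not called, and the other AP-1 and leucine zipper genes had 2 higher and 5 lower and the other immediate early genes 2 and 5. FOSL2 was also not called with library size alone (-0.06), a looser filter (-0.08) or DESeq2 (-0.1). Library size alone gave 5 members called higher, adding JUN (0.11) and IER3 (0.12), moved the median of all genes from 0.01 to 0.04 and made 57.2% of all calls higher, in place of 49.4%. Genes past both limits numbered 711 with the looser filter and 299 with the stricter filter. DESeq2 called 6652 genes. Leaving out each library gave FOSL2 from -0.12 to -0.06, EGR1 from -0.53 to -0.33 and 5 to 6 members called. With the replicate block 6 members and 8526 genes were called, FOSL2 was -0.09 and no member's call changed. Same-numbered samples deviated from their group means with correlations of 0.01, 0.06 and -0.21. With 3 samples per group these correlations cannot show whether same-numbered samples shared a culture or batch. Shares taken from counts gave FOSL1 39% and 45.2%, JUN 81% and 83.3% and JUNB 12.7% and 9.01% in CP+siNC and CP+siNAT10. With FOSB included, also tried after seeing the data, FOSL1 held 59.9% and 64%. GENCODE 29 lengths, tried after seeing the data, moved 3 members in the order by level. Of 66 list genes followed, 26 lost their call in the test against a 1.2-fold change and 3 in any other setting. The causes were not tested where none is given. Depth limits EGR1 and FOS most, at 155 to 341 counts per library.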
